A study of Mus musculus with 16 samples.

Results

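The comparison described here is that of mesenchymal stromal cells taken 4 h after an injection of CGRP with the same cells taken 4 h after an injection of phosphate-buffered saline (PBS). CGRP, calcitonin gene-related peptide, is a neuropeptide of sensory nerve endings. The mice were of the strain C57BL/6, aged 8 weeks and injected intraperitoneally, and the cells came from their hindlimb muscle, so strain, age, tissue and route are common to both groups. Each library was made from 1000 sorted cells. There were 4 libraries after CGRP and 4 after PBS, 8 of the 16 libraries of the study, and the other 8 are the same treatments at 8 h. The submitters call the 4 libraries of a group biological replicates. Nothing used here says how many mice went into each. P-values therefore measure the spread between these libraries. Neither do the labels give the CGRP dose or the gate of the sort. The question is which functions of the stromal cell had moved by 4 h: membrane transport, reception of signals, secretion, transcription, and the machinery that makes RNA and protein.

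CGRP acts on a receptor formed by Calcrl and Ramp1, which couples mainly to the stimulatory G protein and raises cyclic AMP. Cyclic AMP activates protein kinase A, which phosphorylates the transcription factor CREB. Ribosomes are assembled in the nucleolus, where RNA polymerase I transcribes the precursor of ribosomal RNA. Small nucleolar RNA-protein particles, helicases and methylating enzymes then modify, cut and fold it. The finished subunits leave through the nuclear pore. Mesenchymal stromal cells of muscle lie between the fibres, make much of the extracellular matrix and send growth factors and cytokines to muscle stem cells and immune cells.

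The libraries held 7161311 to 10011920 counts after PBS and 7547621 to 9569539 after CGRP. PBS replicate 4 and CGRP replicate 3 had the most genes with at least 1 read, 25579 and 24376, against 21178 to 22341 in the other 6. The 10 most abundant genes took 20.4% to 21.9% of the counts after PBS and 18.4% to 19.5% after CGRP, with no overlap (exact two-sided permutation p = 0.0286, the smallest that 4 against 4 libraries allow). The summed level of 11 markers of mesenchymal stromal cells, Pdgfra, Dcn and Gsn among them, was 163750 to 187876 CPM after PBS and 146030 to 153251 CPM after CGRP. CPM are counts relative to the scaled library size. Of these markers of the sorted cells themselves 7 fell, among them Lum (-0.78 ± 0.18), Osr1 (-0.74 ± 0.11), Pdgfrb (-0.65 ± 0.11) and Pdgfra (-0.40 ± 0.07), and Ly6a rose (0.26 ± 0.07). The call of Ly6a was lost without PBS replicate 4 and with upper-quartile scaling. Markers of other cells had lower sums. The sum of 10 endothelial markers was 83.2 to 145 CPM after PBS and 95.1 to 118 after CGRP, and that of 12 macrophage markers was 4.84 to 11 and 5.89 to 8.54. The sum of 10 pericyte and smooth muscle markers was 135 to 184 and 91.4 to 110 CPM, and 2 of the 7 that could be tested fell, Cspg4 (-1.20 ± 0.20) and Myh11 (-2.60 ± 0.68). The sum of 9 Schwann cell markers was 1184 to 1264 and 905 to 1020 CPM, 2 of the 6 tested fell, S100b (-0.83 ± 0.27) and Pmp22 (-0.35 ± 0.08), and Mal was at 0 in all libraries. The sum of 14 lymphocyte markers was 213 to 274 and 163 to 211 CPM, 1 of the 3 tested fell, Rora (-0.47 ± 0.09), and Nkg7 was at 0 in all libraries of 4 h. S100b lost its call without any one of CGRP replicates 1, 3 or 4 or PBS replicates 1 or 2. Here and later a value in parentheses is the log2 fold change, CGRP against PBS, with its SE. The sum of 6 tenocyte markers was 681 to 1508 CPM after PBS and 284 to 832 after CGRP, and 1 of the 5 tested fell. The sum of 8 markers of muscle stem cells and myoblasts was 309 to 452 and 362 to 496 CPM, and 0 of the 4 tested were called. In sorted populations fewer cells of a type and less RNA per cell cannot be told apart. Whether transcripts of these markers came from other cells or from the stromal cells was not tested.

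Of 13949 genes with enough counts to test, 1094 rose and 1168 fell after CGRP, 16.2% in all, 7.84% upward and 8.37% downward. These are calls at an adjusted p under 0.05 by edgeR's quasi-likelihood test with Benjamini-Hochberg adjustment over all tested genes. In what follows rose and fell stand for such calls, and adjusted p for that test. The median log2 fold change over all genes was -0.002. Most shifts were modest: 212 of the rises and 215 of the falls were more than 2-fold. The split between rises and falls moved with the scaling, from 913 and 1381 with upper-quartile scaling to 1401 and 925 with total counts. The number of calls also rested on CGRP replicate 4: without it 696 genes rose and 785 fell. The CPM of the groups did not overlap for 2630 genes, 18.9% of those tested (8.95% higher and 9.9% lower after CGRP), and 1852 of these were called.

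The calls were grouped with 76 lists of genes in 8 categories of function. Among 733 genes of the RNA machinery 209 rose, 28.5% against 7.84% of all genes, and 5 fell. Their median log2 fold change was 0.220. Among 1166 genes of the protein machinery 136 rose and 65 fell, and among 266 genes of metabolism and the cytoskeleton 41 rose and 24 fell. Among 396 transporters and channels 43 rose and 33 fell, but 39 and 43 with upper-quartile scaling. Falls outnumbered rises among 348 receptors, where 33 rose and 53 fell, among 285 secreted factors (32 and 43), among 895 transcription and chromatin factors (50 and 68) and among 235 signalling regulators (13 and 33). They also did so over all genes, where 1094 rose and 1168 fell. With total-count scaling the order turned for secreted factors (38 and 37) and for transcription factors (62 and 54). Without CGRP replicate 4 the rises were 127 in the RNA machinery, 86 in the protein machinery, 30 among transcription factors, 26 in metabolism and 8 among signalling regulators, and the falls among signalling regulators were 21. Without PBS replicate 2 the falls among transporters were 21 and the rises among transcription factors 32. The falls among transcription factors were 43 without CGRP replicate 1, 44 without PBS replicate 1 and 45 without PBS replicate 2. The falls in the RNA machinery were 9 without CGRP replicate 3 and 3 without PBS replicate 2. With all libraries 11.7% of the protein machinery rose and 5.57% fell, 15.4% and 9.02% of metabolism, and 10.9% and 8.33% of transporters. The shares were 9.48% and 15.2% for receptors and 11.2% and 15.1% for secreted factors. For transcription factors they were 5.59% and 7.6%, and for signalling regulators 5.53% and 14%. Over all genes they were 7.84% and 8.37%, so transcription factors were under both. The protein machinery had a median of 45.4 CPM in the higher group. At a mean of 20 to 100 CPM 12.1% of all genes rose and 9.61% fell.

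**Figure D1:**
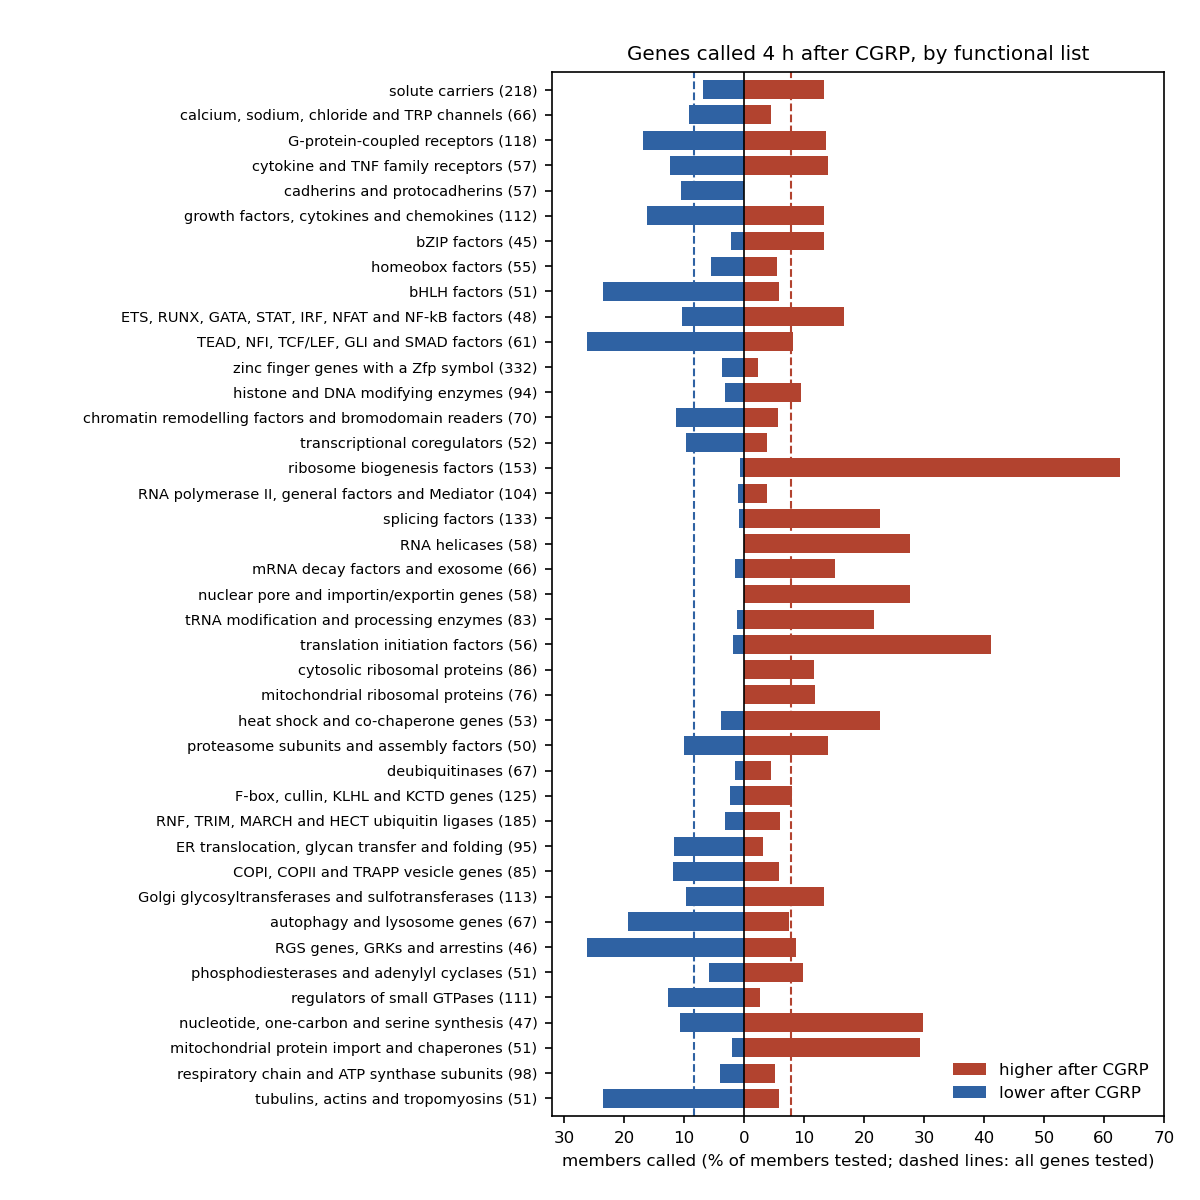
Share of the tested members of each list that was called higher (red, to the right) or lower (blue, to the left) after CGRP at 4 h, in percent, for the lists with at least 45 tested members (number in parentheses); dashed lines give the shares over all 13949 genes, 7.84% and 8.37%. Ribosome biogenesis has the longest bar to the right and the TEAD and NFI list one of the longest to the left.

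**Figure D2:**
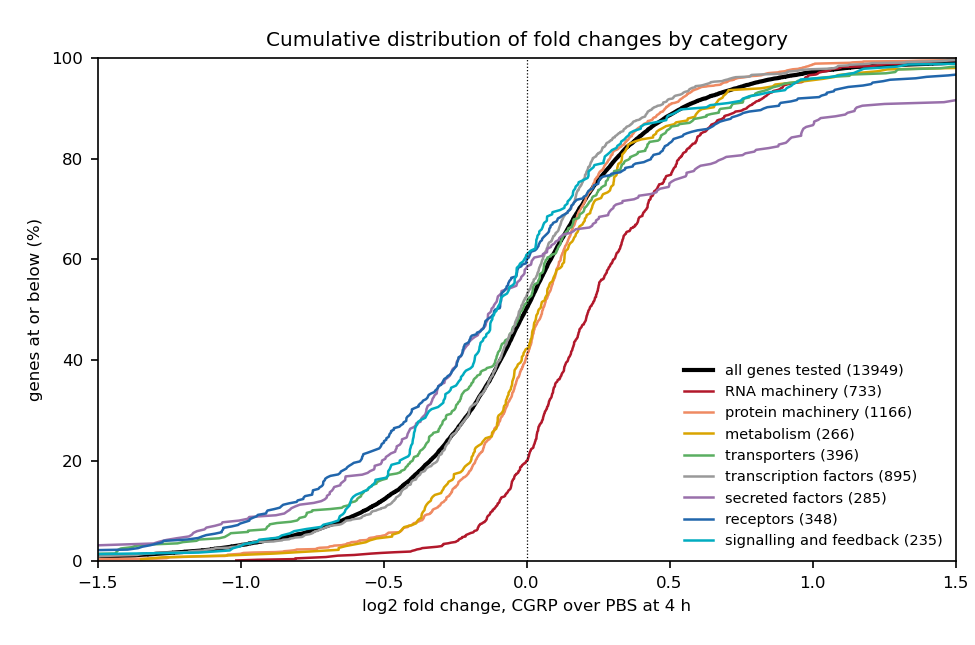
Cumulative share of genes (vertical axis, percent) at or below each log2 fold change of CGRP over PBS at 4 h (horizontal axis), for the 8 categories and for all tested genes (black). The RNA machinery, with a median of 0.220, lies to the right of all genes over most of its range, and the receptors and signalling regulators, with medians of -0.102 each, lie to the left over the lower part.

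Ribosome biogenesis had the largest median shift of the 76 lists. All 153 listed factors were tested, 96 rose, 62.7%, and 1 fell, and the median log2 fold change was 0.594. The rises ran from 0.38 to 1.79. Of the 56 factors without a call, 53 had a positive fold change. Their summed level was 5226 to 5898 CPM after PBS and 7178 to 10179 CPM after CGRP. Relative to the PBS mean, the median log2 ratio over the 153 genes was -0.08, 0.01, 0.07 and -0.04 in PBS replicates 1 to 4. It was 0.53, 0.53, 0.36 and 0.84 in CGRP replicates 1 to 4. All CGRP libraries were thus above all PBS libraries, and CGRP replicate 4 was the highest of them. Leaving out CGRP replicate 4 left 61 rises, and leaving out PBS replicate 4 and CGRP replicate 3 together left 93. Within one range of abundance, of factors with a mean of 20 to 100 CPM 67.8% rose, against 12.1% of all genes in that range.

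**Figure D3:**
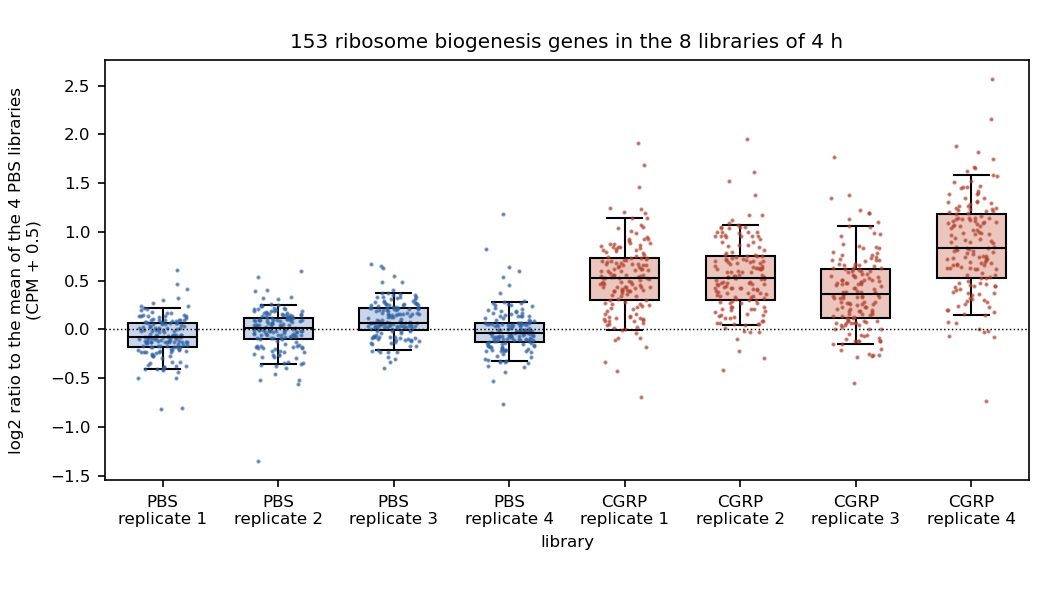
Log2 ratio of CPM plus 0.5 to the mean of the 4 PBS libraries (vertical axis) for 153 ribosome biogenesis genes (points) in each of the 8 libraries of 4 h (horizontal axis); boxes give the quartiles and median, whiskers the middle 90% of genes. The medians of the CGRP libraries, 0.36 to 0.84, lie above those of the PBS libraries, -0.08 to 0.07.

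The members stand at several steps of the assembly line. Fbl, fibrillarin, the methyltransferase of box C/D small nucleolar particles, stood at 5.98, 5.41, 6.2 and 6.87 CPM after PBS and at 14.7, 14.4, 16.6 and 19.2 CPM after CGRP. The groups did not overlap, and the level after CGRP was 2.64 times that after PBS (log2 fold change 1.40 ± 0.20, adjusted p = 6.59e-05). Nop2, which methylates a cytosine of the large subunit RNA, gave 34.8, 39.7, 47.2 and 29.8 CPM in PBS replicates 1 to 4 and 72.3, 75, 63.7 and 105 CPM in CGRP replicates 1 to 4. Every CGRP library was above every PBS library, with replicate 4 the highest (log2 fold change 1.06 ± 0.17, adjusted p = 0.000204). It was named here because its promoter is printed. Nat10, which acetylates cytidines of ribosomal and transfer RNA (1.07 ± 0.15), Rrp12, a factor for the export of subunits (1.73 ± 0.25), and Nop16, a nucleolar protein of the large subunit (1.26 ± 0.18), rose as well. Pih1d1, a part of the R2TP complex that helps to assemble the small nucleolar particles, had 32.1, 32.1, 25.4 and 31 CPM in the PBS libraries and 22.1, 22.4, 20.4 and 17.8 CPM in the CGRP libraries. It was the member that fell (log2 fold change -0.54 ± 0.12, adjusted p = 0.00371). Chosen after its values were seen, Pa2g4, a growth-related protein of nucleoli and ribosomes, also rose (0.82 ± 0.13). Of the 30 subunits and factors of RNA polymerases I and III 7 rose, among them Polr1a, the largest subunit of polymerase I (1.02 ± 0.16), and Rrn3, which brings that enzyme to the ribosomal gene promoter (0.77 ± 0.13). Of the 30, 6 are also in the ribosome biogenesis list, and 4 of these are among the rises. The 7 rises were 23.3% of the list, and without CGRP replicate 4 the count of rises was 3. Of 104 genes of RNA polymerase II, its general factors and Mediator 4 rose (1 without CGRP replicate 4, 2 without CGRP replicate 1, 8 without PBS replicate 4 and CGRP replicate 3, and 10 with total-count scaling) and 1 fell, 3.85% and 0.962%. Gtf2f1, a subunit of TFIIF (0.51 ± 0.12), rose, and Cdk8, the kinase of Mediator, fell (-0.81 ± 0.15). Cdk8 stood at 27.8, 21.2, 20.8 and 20.6 CPM after PBS and at 13.4, 12.7, 12.2 and 13.2 CPM after CGRP. PBS replicate 1 was the highest and the groups did not overlap.

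The regulators of ribosome production in this paragraph are known from other cells. They were chosen after the values were seen, because Myc, Ubtf and Mtor were not called. Rrn3, the regulator of polymerase I named above, rose. These are RNA levels, and the activity of the proteins was not measured. Myc, a transcription factor of growth, gave 76.5, 83.7, 91.7 and 115 CPM in PBS replicates 1 to 4 and 76.1, 92.6, 109 and 162 CPM in CGRP replicates 1 to 4. The groups overlapped and Myc was not called (log2 fold change 0.26 ± 0.23, adjusted p = 0.517). Ubtf, the upstream factor of polymerase I, had a log2 fold change of -0.03 ± 0.11 (adjusted p = 0.891), and Mtor, the growth kinase, 0.32 ± 0.12 (adjusted p = 0.0891). Mxd4, a partner of Max that opposes Myc, fell (-0.60 ± 0.11).

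The promoters of these genes were searched in RefSeq's windows on GRCm38.p6, in the 250 bases before the listed start, for letters that bear on the pathway and on ribosome genes. Of the 13949 tested genes 9989 had at least 1 window, and a gene was counted when any of its windows held the letters. The mean number of windows per gene was 1.28 over all, 1.23 for rises, 1.33 for falls and 1.16 for ribosome biogenesis factors. The E-box CACGTG, which Myc and USF factors bind, was found for 9.91% of these genes. It was found for 11.8% of those that rose, 8.97% of those that fell and 11 of 127 ribosome biogenesis factors, 8.66%. In other lists with many rises it was found for 3 of 15 cytosolic synthetases, 9 of 47 initiation factors and 6 of 40 heat shock genes. The full cyclic AMP response element TGACGTCA was found for 2.98% of all these genes, 2.89% of those that rose and 1.49% of those that fell. The shorter core TGACG, on either strand, was found for 30.3%, 37.7% and 22.3%, and for 41.7% of the ribosome biogenesis factors. Both the E-box and the full element read the same on both strands, and each full element also holds the core. Counted by window and not by gene, over all 32851 listed promoters, the E-box was in 6.02% and the full element in 1.55%. These shares are not comparable with those per gene. A match describes letters and is not shown to be a bound site. The 4 windows that follow are printed in the direction of transcription with the match in capitals: 2 of ribosome biogenesis genes that rose and hold the E-box, Nop2 on chromosome 6 at 125131633 to 125131882 (forward strand) and Rrn3 on chromosome 16 at 13780449 to 13780698 (forward), and 2 of genes with large rises that hold the full element, Dio2 on chromosome 12 at 90739039 to 90739288 (reverse) and the transfer RNA methyltransferase gene Trmt61a on chromosome 12 at 111677855 to 111678104 (forward).
Nop2: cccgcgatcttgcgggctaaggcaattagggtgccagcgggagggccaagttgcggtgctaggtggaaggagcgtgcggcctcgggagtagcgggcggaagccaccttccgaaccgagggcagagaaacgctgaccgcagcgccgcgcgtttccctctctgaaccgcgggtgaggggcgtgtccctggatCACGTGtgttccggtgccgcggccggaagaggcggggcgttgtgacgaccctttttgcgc
Rrn3: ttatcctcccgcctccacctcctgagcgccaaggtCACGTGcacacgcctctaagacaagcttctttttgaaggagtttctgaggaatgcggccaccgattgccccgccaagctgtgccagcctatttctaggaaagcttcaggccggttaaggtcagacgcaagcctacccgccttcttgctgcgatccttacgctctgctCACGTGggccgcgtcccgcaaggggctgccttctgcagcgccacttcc
Dio2: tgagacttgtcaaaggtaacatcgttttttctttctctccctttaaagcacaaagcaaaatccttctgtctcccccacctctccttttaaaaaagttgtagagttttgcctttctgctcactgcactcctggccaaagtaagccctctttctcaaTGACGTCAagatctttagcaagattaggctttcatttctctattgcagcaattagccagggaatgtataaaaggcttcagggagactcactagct
Trmt61a: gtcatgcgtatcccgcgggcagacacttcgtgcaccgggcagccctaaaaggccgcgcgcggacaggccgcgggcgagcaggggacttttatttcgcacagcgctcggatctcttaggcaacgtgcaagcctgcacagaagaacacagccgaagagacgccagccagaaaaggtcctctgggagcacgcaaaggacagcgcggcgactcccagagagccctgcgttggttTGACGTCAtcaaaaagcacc
The match lies 60 bases before the start in Nop2, and the nearer of the pair in Rrn3 lies 48 bases before it. In Dio2 the element lies 95 and in Trmt61a 20 bases before the start. Rrn3 had 34.5, 41, 47.4 and 37 CPM in the PBS libraries and 66.7, 63.5, 58.3 and 84.3 CPM in the CGRP libraries. Trmt61a stood at 10.8, 8.42, 7.36 and 8.02 CPM after PBS and at 22, 19.2, 14.2 and 23.7 CPM after CGRP, and Dio2, which makes active thyroid hormone and was chosen after its values were seen, gave 19.4, 20.8, 23.4 and 14.8 CPM in PBS replicates 1 to 4 and 69.5, 67.7, 71.6 and 94 CPM in CGRP replicates 1 to 4. For all 3 genes the CGRP libraries lay above the PBS libraries, and Dio2 rose 3.87-fold (log2 fold change 1.95 ± 0.16, adjusted p = 4.95e-08).

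Outside ribosome biogenesis the RNA machinery also rose more often than all genes, 113 of 580 or 19.5% with 4 falls (66 rises without CGRP replicate 4; 8 falls without CGRP replicate 3 and 2 without PBS replicate 2). The cytosolic aminoacyl-tRNA synthetases, which load amino acids onto transfer RNA, rose in 17 of 23 with a median of 0.434, and 14 to 16 rose when any 1 library was left out. Eprs, the joint synthetase for glutamate and proline, had 167, 155, 188 and 150 CPM in the PBS libraries and 419, 451, 484 and 508 CPM in the CGRP libraries. No library of one group came near the other, and the rise was 2.82-fold (log2 fold change 1.5 ± 0.10, adjusted p = 1.63e-09). Eprs lies on chromosome 1 at 185363044 to 185428360 (mm10, forward strand). Gars, for glycine (0.62 ± 0.09), Farsb, a subunit for phenylalanine (0.80 ± 0.13), and Wars, for tryptophan (0.65 ± 0.11), rose too. The 6 synthetases without a call had fold changes of 0.05 to 0.30. Among 83 enzymes that cut and modify transfer RNA 18 rose, 21.7%, and 1 fell (11 rises without CGRP replicate 4). Elac2, which trims the 3′ end of transfer RNA, stood at 17.2, 13.9, 32 and 26 CPM after PBS and at 58.8, 59.4, 54.2 and 66.4 CPM after CGRP. The lowest CGRP library was well above the highest PBS library (log2 fold change 1.42 ± 0.17, adjusted p = 1.42e-05). Trmt1, which methylates a guanosine (0.60 ± 0.11), rose, and so did Nsun2, a cytosine methyltransferase chosen after its values were seen (1.71 ± 0.30).

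Genes that carry RNA and protein through the nuclear envelope rose in 16 of 58 (9 without CGRP replicate 4), with a median of 0.263. The importins Ipo5 (0.73 ± 0.12) and Ipo7 (0.72 ± 0.15) and 2 proteins of the Ran cycle that powers transport, Rangap1 (0.84 ± 0.16) and Ranbp1 (0.64 ± 0.12), were among them. RNA helicases rose in 16 of 58 as well. Of these 58, 14 are also in the ribosome biogenesis list and 9 of the 14 rose, and of the other 44, 7 rose. The rises that belong to both lists include the nucleolar helicases Ddx27 (0.67 ± 0.11), Ddx10 (0.87 ± 0.15) and Ddx56 (0.64 ± 0.15). Splicing factors rose in 30 of 133 and fell in 1, with a median of 0.156, but in 14 without CGRP replicate 4, 19 without CGRP replicate 1 and 18 with upper-quartile scaling. Snrpd1, a protein of the Sm ring of spliceosomal particles (0.79 ± 0.14), Isy1 (0.79 ± 0.13), Sf3b3 of the U2 particle (0.59 ± 0.11) and the SR protein Srsf6 (0.41 ± 0.09) rose. Mbnl1, a regulator of alternative splicing, gave 272, 222, 241 and 208 CPM in PBS replicates 1 to 4 and 177, 167, 206 and 182 CPM in CGRP replicates 1 to 4. It fell (log2 fold change -0.36 ± 0.09, adjusted p = 0.00776). Of 66 genes of messenger RNA decay 10 rose and 1 fell (5 rises without any one of CGRP replicate 4, PBS replicate 1 or PBS replicate 2), with the exonuclease Xrn2 (0.45 ± 0.09) and the exosome subunit Exosc1 (0.77 ± 0.15) among the rises. Of 39 genes of cleavage, polyadenylation and export 7 rose, among them Ncbp1, the large cap-binding protein of the nucleus (0.61 ± 0.12), Cpsf2 (0.56 ± 0.12) and Pabpc1, which binds the poly(A) tail (0.48 ± 0.11). Of 20 hnRNP genes 4 rose (7 with total-count scaling). Rises were 27.6% of the nuclear envelope list, 27.6% of the helicases and 22.6% of the splicing factors, against 7.84% of all genes. They were 15.2% of the decay list, 17.9% of the cleavage and export list and 20% of the hnRNP genes.

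Within the protein machinery the lists of translation factors had the largest shares of rises. Of 56 initiation factors 23 rose and 1 fell, with a median of 0.289 (14 rises without CGRP replicate 4). Eif2b3, the gamma subunit of eIF2B that recharges initiation factor 2, had 26.9, 28.4, 27.8 and 28.4 CPM in the PBS libraries and 51.8, 49, 50.1 and 67 CPM in the CGRP libraries. The PBS libraries were almost level and CGRP replicate 4 was the highest (log2 fold change 0.96 ± 0.12, adjusted p = 1.1e-05). Eif2s1, the alpha subunit of initiation factor 2 (0.73 ± 0.11), Eif5, which triggers its GTP hydrolysis (0.58 ± 0.09), and Eif4e, which binds the cap (0.66 ± 0.13), rose. Of 19 elongation and release factors 8 rose (5 without CGRP replicate 4), including Dph5, which helps to make the diphthamide of elongation factor 2 (0.88 ± 0.19), and the release factor Gspt1 (0.55 ± 0.13). Cytosolic ribosomal proteins shifted less. Of 86 tested 10 rose, 11.6%, with a median of 0.157. The count was 4 without CGRP replicate 4 or PBS replicate 1, 6 without CGRP replicate 1, CGRP replicate 3 or PBS replicate 3, and 5 to 16 over the scalings. Rpl18 (0.33 ± 0.08) and Rpl10a (0.36 ± 0.09) were among them. Reads of ribosomal protein genes can be shared with their processed pseudogenes. Of 76 mitochondrial ribosomal proteins 9 rose, with a median of 0.116. The count was 4 without PBS replicate 1, 5 without CGRP replicate 1, CGRP replicate 4 or PBS replicate 4, 15 without CGRP replicate 3, and 4 to 14 over the scalings. Mrpl15 (0.52 ± 0.12) and Mrpl21 (0.49 ± 0.11) rose. With all libraries 41.1% of initiation factors, 42.1% of elongation and release factors and 11.8% of mitochondrial ribosomal proteins rose, against 7.84% of all genes. Rises were more frequent among abundant genes, 12.1% of all genes with a mean of 20 to 100 CPM and 13.8% over 100 CPM. The mitochondrial and cytosolic ribosomal proteins, with medians of 34.6 and 192 CPM in the higher group, did not exceed these shares.

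Folding genes of the cytosol and of the endoplasmic reticulum (ER) differed in their counts. Of the 22 subunits of the chaperonin and prefoldin, which fold actin and tubulin, 8 rose, with Cct3 (0.77 ± 0.12), Cct5 (0.55 ± 0.11), Cct6a (0.59 ± 0.12) and Cct8 (0.52 ± 0.12) among them. Cct3 stood at 216, 220, 235 and 212 CPM after PBS and at 414, 347, 327 and 416 CPM after CGRP. The lowest CGRP library lay well above the highest PBS library. Of 53 heat shock genes and co-chaperones 12 rose and 2 fell, including Hspa4 (0.57 ± 0.13) and Ahsa1, an activator of Hsp90 (0.50 ± 0.12). The list stood higher in CGRP replicate 1 than in the rest: its summed level was 12978 CPM there, against 6264 to 7476 in the other CGRP libraries and 5850 to 6865 after PBS, and 10 rose without that library. The core letters of the heat shock element were found for 7 of the 40 of these genes with a promoter window, 17.5%. The share was 6.07% of all tested genes with a window. In the ER list 11 of 95 fell and 3 rose, and over the scalings 5 to 14 fell and the median ran from -0.053 to 0.046, with 6 rises and 5 falls for total counts. CGRP replicate 1 went the other way: the median log2 ratio to PBS was 0.13 there against -0.05, -0.13 and -0.15 in CGRP replicates 2 to 4. The falls included Fkbp14 (-0.61 ± 0.11) and Fkbp10 (-0.55 ± 0.10), prolyl isomerases of collagen folding, and Plod1 (-0.41 ± 0.10), a lysyl hydroxylase of collagen. Plod2, another lysyl hydroxylase, gave 19.8, 22, 20.4 and 18.4 CPM in PBS replicates 1 to 4 and 32.5, 38.1, 48.6 and 42.3 CPM in CGRP replicates 1 to 4. It rose 2-fold (log2 fold change 1.00 ± 0.15, adjusted p = 0.000125). Without PBS replicate 4 and CGRP replicate 3 the ER list had 4 falls, and without any single library other than CGRP replicate 1 or PBS replicate 3 it had 5 to 7. Of 85 genes of COPI, COPII and TRAPP vesicles 10 fell and 5 rose. Without PBS replicate 4 and CGRP replicate 3, 4 fell, without CGRP replicate 1, 5 fell, and without any one of CGRP replicate 4 or PBS replicates 1, 3 or 4, 6 fell. Without PBS replicate 2, 2 rose, and without PBS replicate 1, 3 rose. The falls ran from 6 to 15 over the scalings, and with total counts 6 rose and 6 fell. Kdelr3, a receptor that returns chaperones to the ER, fell (-0.81 ± 0.14), and Tmed5 (0.54 ± 0.12) and Sec24b (0.53 ± 0.14) of the outward coat rose. Of the chaperonin list 36.4% rose and of the heat shock list 22.6%, against 7.84% of all genes. Falls were 11.6% of the ER list and 11.8% of the vesicle list, against 8.37% of all genes. Both lists were abundant, with medians of 129 and 79.5 CPM in the higher group. Of all genes with a mean over 100 CPM 20.5% fell, and of those at 20 to 100 CPM 9.61%.

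Glycan-building enzymes of the Golgi split. Of 113 tested 15 rose and 11 fell (5 falls without CGRP replicate 1 or PBS replicate 2, 6 without CGRP replicate 4). Csgalnact1, which starts chondroitin sulfate chains, rose (1.38 ± 0.19), as did B3galt6, which adds a galactose of the linker of those chains (0.98 ± 0.21), and the sialyltransferase St3gal1 (0.42 ± 0.09). B3gnt9, an N-acetylglucosaminyltransferase, had 161, 146, 142 and 145 CPM in the PBS libraries and 80.6, 97.1, 98.4 and 83.8 CPM in the CGRP libraries. Gxylt2, which adds xylose to O-glucose on Notch repeats, stood at 50.3, 49.7, 33.3 and 41.5 CPM after PBS and at 11.1, 22.1, 19.5 and 20.7 CPM after CGRP. Neither gene's groups overlapped, and both fell (-0.72 ± 0.10 and -1.26 ± 0.18). Autophagy and lysosome genes fell in 13 and rose in 5 of 67 (1 rise without PBS replicate 1, 2 without PBS replicate 2, 3 without any one of CGRP replicates 2 to 4), with a median of -0.152. The falls were 11 to 15 when any 1 library was left out and 20 with upper-quartile scaling. With all libraries 19.4% of the list fell, against 8.37% of all genes, but its genes were abundant (median 100 CPM in the higher group). Of all genes with a mean over 100 CPM 20.5% fell, and of those at 20 to 100 CPM 9.61%. Laptm4b, a lysosomal membrane protein, gave 126, 119, 108 and 95.4 CPM in PBS replicates 1 to 4 and 65.7, 77.3, 74 and 64.4 CPM in CGRP replicates 1 to 4. Hexa, a lysosomal glycosidase subunit (-0.40 ± 0.08), and the autophagy receptor Sqstm1 (-0.39 ± 0.08) also fell. Of 50 proteasome genes 7 rose and 5 fell. Psmd14, the deubiquitinase of the lid (0.49 ± 0.11), and the assembly factor Psmg2 (0.47 ± 0.11) rose, while the inducible subunit Psmb9 (-1.02 ± 0.19) and Psme1, of an interferon-inducible activator (-0.39 ± 0.08), fell. Without CGRP replicate 4 or PBS replicate 1, 3 proteasome genes rose, without CGRP replicate 1 or 2, 4 rose, and without CGRP replicate 3, 12 rose. With upper-quartile scaling 5 rose and 5 fell, and with total counts 11 rose. In the main fit 14% of the proteasome genes rose and 10% fell. For the Golgi enzymes the shares were 13.3% and 9.73%, against 7.84% and 8.37% of all genes. The proteasome genes had a median of 113 CPM in the higher group and the Golgi enzymes 31 CPM. Rises were 13.8% of all genes with a mean over 100 CPM and 12.1% of those at 20 to 100 CPM. Ube2d3, a ubiquitin-conjugating enzyme, had 86.1, 99.7, 116 and 98.9 CPM in the PBS libraries and 141, 149, 148 and 170 CPM in the CGRP libraries. It rose without overlap (0.60 ± 0.09). The large families of ubiquitin ligases were near or under the background, with 11 rises and 6 falls among 185 RNF, TRIM, MARCH and HECT genes (6 rises without CGRP replicate 4 or PBS replicate 2, 3 falls without CGRP replicate 1 or PBS replicate 1).

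Enzymes that supply nucleotides, one-carbon units and serine rose in 14 and fell in 5 of 47, with a median of 0.304. Uap1, which makes UDP-N-acetylglucosamine, stood at 339, 439, 454 and 426 CPM after PBS and at 1844, 1458, 1193 and 2366 CPM after CGRP. The spread after CGRP was wide, but its lowest library was above every PBS library, and the rise was 4.14-fold (log2 fold change 2.05 ± 0.17, adjusted p = 1.31e-06). The similar gene Uap1l1 gave 95.6, 111, 89.8 and 121 CPM in PBS replicates 1 to 4 and 48.5, 67.1, 60.9 and 50.4 CPM in CGRP replicates 1 to 4. It fell (log2 fold change -0.88 ± 0.12, adjusted p = 2.1e-05). Mthfd1, a folate enzyme, had 48.2, 41.2, 43.9 and 45.2 CPM in the PBS libraries and 90, 76.3, 79.2 and 80.2 CPM in the CGRP libraries. Uck2, which phosphorylates uridine and cytidine (2.16 ± 0.31), and Adsl of purine synthesis (0.60 ± 0.10) rose, while adenosine kinase, Adk, fell (-0.77 ± 0.10). Adk stood at 140, 142, 131 and 141 CPM after PBS and at 60.4, 82.6, 93.1 and 88.8 CPM after CGRP. Phgdh, the entry enzyme of serine synthesis, also fell (-0.44 ± 0.11). In the polyamine and methionine list 4 of 19 rose and 2 fell. Odc1 (1.26 ± 0.24), Srm (1.62 ± 0.25) and Amd1 (0.65 ± 0.16), 3 enzymes of polyamine synthesis, rose and Oaz2, an antizyme that restrains Odc1, fell (-0.40 ± 0.09). Srm gave 34.2, 27, 51.6 and 72.1 CPM in PBS replicates 1 to 4 and 126, 124, 128 and 192 CPM in CGRP replicates 1 to 4. PBS replicate 4 was the highest of its group and still under every CGRP library. Of 51 genes of mitochondrial protein import 15 rose and 1 fell (8 rises without CGRP replicate 4). Hspa9, the mitochondrial Hsp70 (0.82 ± 0.13), Timm10, a chaperone of the intermembrane space (1.04 ± 0.17), and Chchd4, its oxidative receptor (0.98 ± 0.21), rose. Of 98 respiratory chain and ATP synthase genes 5 rose and 4 fell, 5.1% and 4.08%, under the 7.84% and 8.37% of all genes. Their rises were 2 without PBS replicate 1 and 3 without CGRP replicate 4. Their falls were 2 without any one of CGRP replicate 3, CGRP replicate 4 or PBS replicate 3. The median of the list was 68.5 CPM in the higher group. At 20 to 100 CPM 12.1% of all genes rose and 9.61% fell. Atp5d, the delta subunit of ATP synthase, had 149, 169, 167 and 173 CPM in the PBS libraries and 253, 231, 284 and 273 CPM in the CGRP libraries. It rose (log2 fold change 0.66 ± 0.08, adjusted p = 5.91e-06), and Ndufa4l2, a gene known to respond to hypoxia, fell (-1.27 ± 0.27). Of the nucleotide, one-carbon and serine list 29.8% rose and 10.6% fell, against 7.84% and 8.37% of all genes. The shares were 21.1% and 10.5% for the polyamine and methionine list and 29.4% and 1.96% for mitochondrial import.

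Transporters and channels moved both ways. Solute carriers rose in 29 of 218, 13.3%, and fell in 15, 6.88%, against 7.84% and 8.37% of all genes. Leaving out PBS replicate 2 left 20 rises and 6 falls, leaving out any one of CGRP replicate 4, PBS replicate 1 or PBS replicate 4 left 8 falls, and total-count scaling gave 9 falls. Slc6a12, a carrier of betaine and GABA, stood at 5.27, 4.06, 4.13 and 8.64 CPM after PBS and at 27.6, 26.7, 20.5 and 27.7 CPM after CGRP. It was 4.6 times as high after CGRP (log2 fold change 2.20 ± 0.22, adjusted p = 7.92e-07). Slc6a2, the noradrenaline transporter (0.90 ± 0.16), the cationic amino acid transporter Slc7a1 (0.85 ± 0.18), Slc7a6, which exchanges cationic for neutral amino acids (0.53 ± 0.12), and the lactate and pyruvate carrier Slc16a1 (1.56 ± 0.26) rose. Slc25a3, which brings phosphate into mitochondria, gave 464, 494, 526 and 468 CPM in PBS replicates 1 to 4 and 605, 654, 658 and 687 CPM in CGRP replicates 1 to 4. The rise was small in fold and the groups did not overlap (log2 fold change 0.42 ± 0.07, adjusted p = 0.000275). Slc25a37, the iron carrier of mitochondria (0.98 ± 0.17), rose, as did Slc30a5 (0.63 ± 0.15) and Slc30a9 (0.80 ± 0.18), members of the zinc transporter family. Slc44a2, of the choline transporter-like family, had 184, 173, 161 and 174 CPM in the PBS libraries and 101, 111, 116 and 101 CPM in the CGRP libraries. It fell (log2 fold change -0.69 ± 0.09, adjusted p = 1.61e-05), together with its relative Slc44a1 (-0.45 ± 0.11), the fatty acid transporter Slc27a1 (-0.97 ± 0.17) and the sugar transporter Slc50a1 (-0.51 ± 0.09).

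Of 34 members of the ABC transporter list 6 fell, 3 rose and 25 had no call. The falls included Abca8a, Abca8b, Abca9 (-0.75 ± 0.10) and Abca6 (-0.52 ± 0.11), lipid-related transporters of 1 gene cluster. Abca8a stood at 873, 828, 709 and 717 CPM after PBS and at 347, 411, 476 and 445 CPM after CGRP. Abca8b gave 274, 295, 234 and 261 CPM in PBS replicates 1 to 4 and 158, 156, 142 and 168 CPM in CGRP replicates 1 to 4. Both fell without overlap (-0.90 ± 0.11 and -0.77 ± 0.09), and reads may be shared between such similar neighbours. The rises included Abce1 (0.86 ± 0.16) and Abcf2 (0.61 ± 0.14), which carry the same cassette but act in ribosome recycling and translation rather than as carriers. Among 27 pumps of the P type 4 rose (2 without CGRP replicate 1) and 1 fell. Atp2c1, the calcium and manganese pump of the Golgi, had 37.8, 34.9, 48.9 and 49.1 CPM in the PBS libraries and 76.9, 65.4, 69.5 and 69.8 CPM in the CGRP libraries. Atp2a2, the calcium pump of the ER, rose too (0.49 ± 0.10). In the list of calcium, sodium, chloride and TRP channels 3 rose and 6 fell of 66. Cacna1c, an L-type calcium channel (1.05 ± 0.24), rose, and the T-type channel Cacna1g (-1.37 ± 0.22), the release channel Itpr2 (-0.55 ± 0.12) and the mechanosensitive channel Piezo2 (-1.04 ± 0.26) fell. The gap junction gene Gja1 (0.58 ± 0.12) and the pannexin Panx1 (1.45 ± 0.25) rose. Of 22 potassium channel genes 1 rose and 4 fell, 4.55% and 18.2% (2 falls without CGRP replicate 1), with a median of -0.403. Of the ABC list 8.82% rose and 17.6% fell, and of the P-type pumps 14.8% and 3.7%. The calcium, sodium, chloride and TRP list rose in 4.55% and fell in 9.09%, against 7.84% and 8.37% of all genes.

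**Figure D4:**
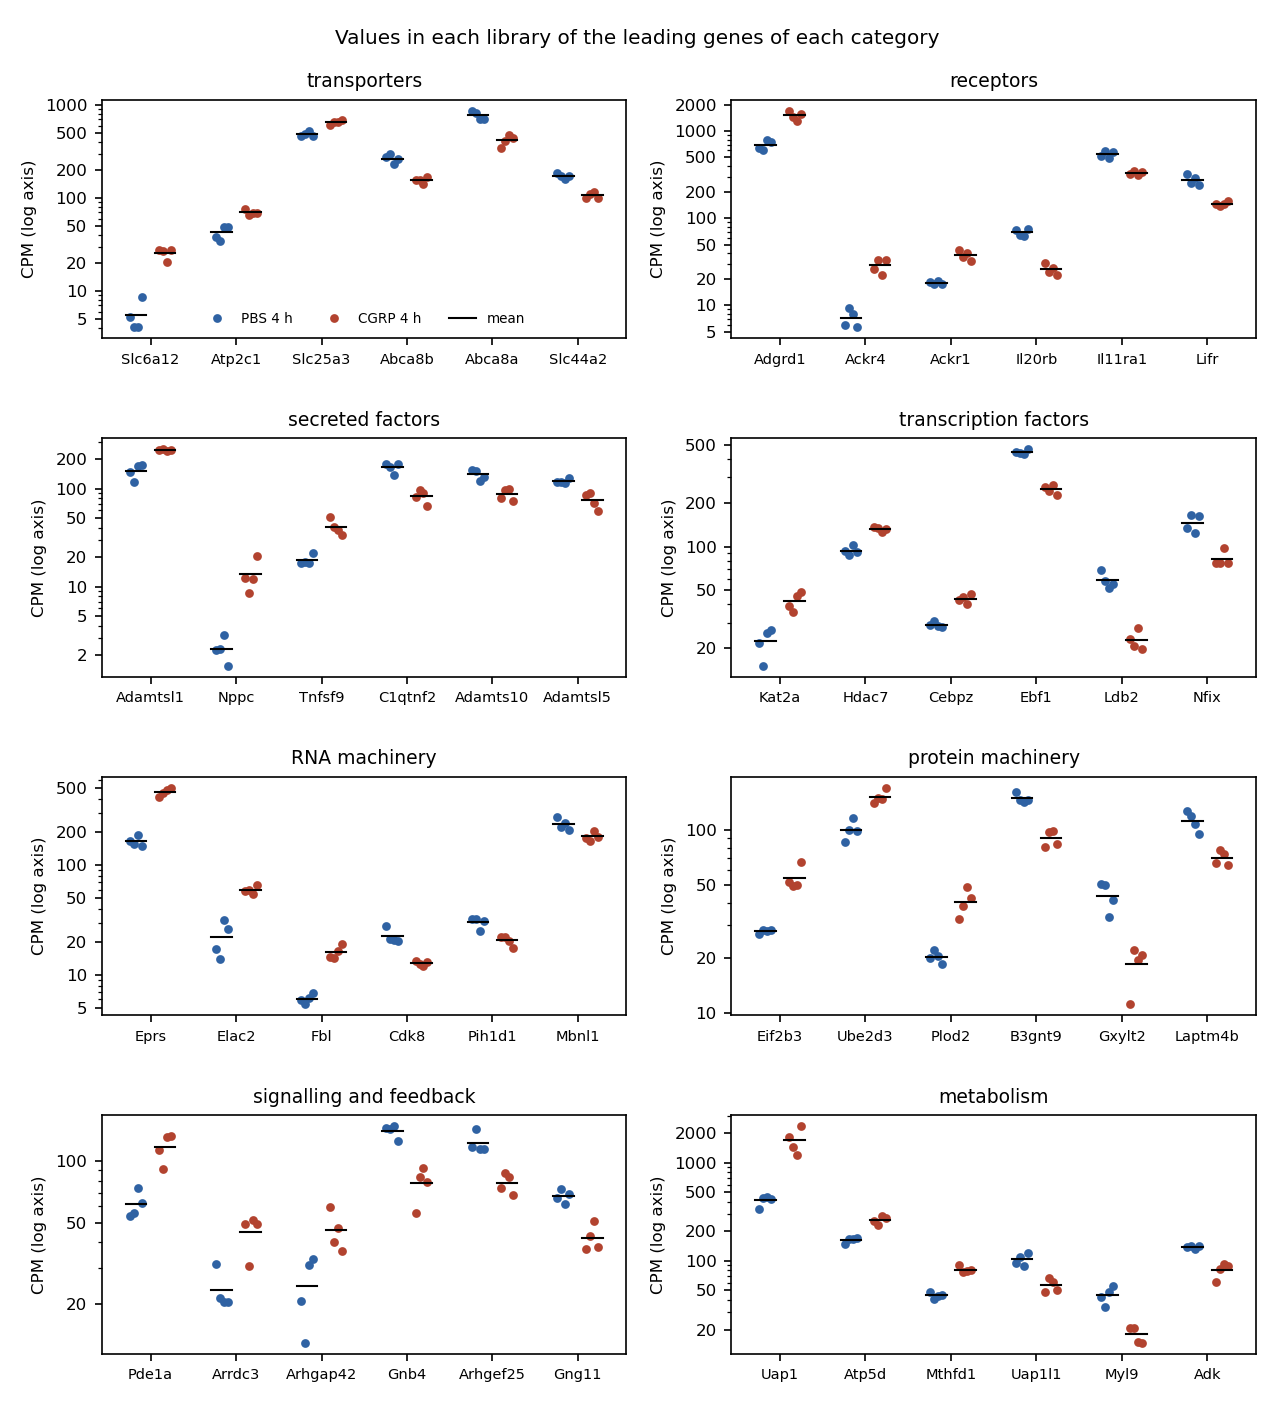
CPM (vertical log axis) in each of the 4 PBS (blue) and 4 CGRP (red) libraries of 4 h for the 3 genes with the smallest p in each direction in each of the 8 categories; black lines are group means. Except for Arrdc3, no gene's red and blue points overlap.

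Among receptors the changes were more often downward. G-protein-coupled receptors rose in 16 and fell in 20 of 118, 13.6% and 16.9%, with a median of -0.219. Adgrd1, an adhesion receptor, stood at 641, 602, 792 and 741 CPM after PBS and at 1717, 1462, 1310 and 1566 CPM after CGRP. The groups were far apart, and it rose 2.18-fold (log2 fold change 1.12 ± 0.10, adjusted p = 1.42e-07). Adgrd1 lies on chromosome 5 at 129096750 to 129204599 (mm10, forward strand). Ackr4 and Ackr1 bind chemokines without signalling through G proteins. Ackr4 gave 5.98, 9.26, 8 and 5.62 CPM in PBS replicates 1 to 4 and 26.1, 33.1, 22.5 and 33.6 CPM in CGRP replicates 1 to 4. Ackr1 had 18.4, 17.7, 19.1 and 17.7 CPM in the PBS libraries and 42.8, 35.7, 40.2 and 32.1 CPM in the CGRP libraries. Both rose, 3.98-fold (log2 fold change 1.99 ± 0.26, adjusted p = 2.63e-05) and 2.07-fold (log2 fold change 1.05 ± 0.14, adjusted p = 3.42e-05). The prokineticin receptor Prokr1 (-0.70 ± 0.13), the glutamate receptor Grm8 (-1.32 ± 0.25) and Adgre5, also known as CD97 (-0.97 ± 0.15), fell. Of 57 receptors of the cytokine and TNF families 8 rose (5 without CGRP replicate 4) and 7 fell, 14% and 12.3%. The TNF receptors Tnfrsf1a (0.48 ± 0.08) and Tnfrsf1b (0.64 ± 0.10), Il6ra (0.92 ± 0.16) and Il13ra1 (0.60 ± 0.12) rose. Il20rb, a chain of receptors for the interleukin 20 group, stood at 74.1, 64.3, 62.6 and 74.7 CPM after PBS and at 30.9, 24.3, 26.8 and 22.6 CPM after CGRP. Il11ra1, the interleukin 11 receptor chain, gave 519, 598, 496 and 568 CPM in PBS replicates 1 to 4 and 326, 347, 317 and 342 CPM in CGRP replicates 1 to 4. Lifr, the receptor of leukaemia inhibitory factor, had 319, 256, 288 and 243 CPM in the PBS libraries and 145, 138, 147 and 159 CPM in the CGRP libraries. All 3 fell with a clear gap between the groups (-1.39 ± 0.16, -0.71 ± 0.08 and -0.91 ± 0.11). Of these chains Il6ra rose while Lifr and Il11ra1, which also signal with gp130, fell, and Ifngr1, a chain of the interferon gamma receptor, fell (-0.51 ± 0.10).

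Other receptor families also moved both ways. In a list of TGF-beta and BMP receptors, their co-receptors and lipoprotein receptors 5 of 25 fell and 1 rose (3 falls without any one of CGRP replicates 1 or 2 or PBS replicates 1 or 2, and with total counts). Tgfbr2, the type II receptor of TGF-beta, stood at 335, 277, 447 and 435 CPM after PBS and at 811, 614, 689 and 652 CPM after CGRP. It was the member that rose (log2 fold change 0.89 ± 0.13, adjusted p = 0.000137). The BMP9 receptor Acvrl1 (-0.86 ± 0.11) and its co-receptor endoglin, Eng (-0.43 ± 0.08), fell. Receptor tyrosine kinases rose in 3 (1 without CGRP replicate 2 or PBS replicate 2) and fell in 7 of 38, and 6 rose and 6 fell with total counts, with Ntrk2, the receptor of BDNF, up (0.76 ± 0.11) and the ephrin receptor Epha4 down (-1.34 ± 0.24). Of 20 integrins 2 rose (1 without CGRP replicate 4) and 3 fell: the fibronectin receptor chain Itga5 (1.18 ± 0.25) rose, and Itga8 (-1.67 ± 0.29) and the collagen receptor chain Itga11 (-0.54 ± 0.10) fell. Of 57 cadherins and protocadherins 6 fell and 0 rose, with 1 more having a positive fold change at an unadjusted p under 0.05 and 0 rises by DESeq2. Fat4 (-1.03 ± 0.18) and Cdh11 (-0.80 ± 0.20) were among the falls. Nuclear receptors rose in 3 and fell in 5 of 33, including the oestrogen receptor Esr1 (-0.58 ± 0.11) and the thyroid hormone receptor Thra (-0.51 ± 0.09). Over all genes 7.84% rose and 8.37% fell. The shares were 9.09% and 15.2% for nuclear receptors, 10% and 15% for integrins and 7.89% and 18.4% for receptor tyrosine kinases. For the TGF-beta list they were 4% and 20%. The falls of cadherins, 10.5%, were near the share of all genes.

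Secreted factors had a wider spread than all genes in the plot of cumulative shares, with a median of -0.122. Growth factors, cytokines and chemokines rose in 15 and fell in 18 of 112, 13.4% and 16.1%. Leaving out PBS replicate 2 left 9 rises and leaving out CGRP replicate 1 left 11 falls. With total counts the order turned, with 20 rises and 17 falls, and the median ran from -0.066 to 0.029 over the scalings. Tnfsf9, the ligand of 4-1BB, gave 17.4, 17.8, 17.6 and 22.3 CPM in PBS replicates 1 to 4 and 51, 41, 37.8 and 33.6 CPM in CGRP replicates 1 to 4. All CGRP libraries were above all PBS libraries (log2 fold change 1.12 ± 0.19, adjusted p = 0.000355). Vegfd, a lymphatic growth factor, rose (0.85 ± 0.20), and Angptl1 fell (-0.41 ± 0.09). In the list of neuropeptides and hormones 4 of 29 rose and 7 fell, 13.8% and 24.1% (3 falls without CGRP replicate 4, 4 without CGRP replicate 1). Nppc, the precursor of C-type natriuretic peptide, had 2.28, 2.29, 3.23 and 1.56 CPM in the PBS libraries and 12.3, 8.59, 12.1 and 20.6 CPM in the CGRP libraries. It rose 5.73-fold from a low level (log2 fold change 2.52 ± 0.39, adjusted p = 0.000139). C1qtnf2, a secreted relative of adiponectin, stood at 178, 167, 137 and 178 CPM after PBS and at 82.5, 97.7, 89.7 and 67.2 CPM after CGRP. It fell (log2 fold change -0.97 ± 0.12, adjusted p = 6.45e-06), as did C1qtnf12 (-0.74 ± 0.15). The metalloprotease list had 4 rises and 4 falls among 43, 9.3% each way, near the 7.84% and 8.37% of all genes. Adamtsl1, an ADAMTS-like matrix protein without a protease domain, gave 148, 116, 171 and 175 CPM in PBS replicates 1 to 4 and 248, 253, 240 and 249 CPM in CGRP replicates 1 to 4. Adamts10, a protease linked to microfibrils, had 155, 151, 121 and 133 CPM in the PBS libraries and 79.7, 96.4, 99.1 and 74.3 CPM in the CGRP libraries. The first rose and the second fell (0.70 ± 0.11 and -0.68 ± 0.11). Adamts6 (1.53 ± 0.32) rose, and Adamtsl3 (-0.44 ± 0.11) fell. Adamtsl5 stood at 116, 117, 114 and 129 CPM after PBS and at 85.7, 89.3, 71.4 and 59.8 CPM after CGRP. It fell without overlap (-0.63 ± 0.11). Antagonists and binding proteins of growth factors fell in 4 of 33 (1 without PBS replicate 2, 2 without CGRP replicate 1 and with total counts) and rose in 0, with 1 positive fold change at an unadjusted p under 0.05 and 0 rises by DESeq2. The falls were 12.1% of this abundant list (median 115 CPM in the higher group). Of all genes with a mean over 100 CPM 20.5% fell. Serpins rose in 3 and fell in 3 of 17, 17.6% each way, with Serpina3n, an acute-phase protease inhibitor, up (1.11 ± 0.21). The acute-phase proteins Saa1 (2.14 ± 0.38) and Ptx3 (2.00 ± 0.49) rose from under 5 CPM.

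Among transcription factors the NFI and GLI relatives and the bHLH genes fell in larger shares than the 8.37% of all genes. In the list of TEAD, NFI, TCF/LEF, GLI and SMAD factors, together with their cofactors and the EBF genes, 16 of 61 fell, 26.2%, and 5 rose, with a median of -0.172. The falls were 12 to 17 and the rises 1 to 5 when any 1 library was left out, the lowest in both cases without PBS replicate 2. Ebf1, an early B-cell factor that is also a factor of mesenchymal cells, gave 447, 442, 434 and 468 CPM in PBS replicates 1 to 4 and 258, 242, 264 and 226 CPM in CGRP replicates 1 to 4. The spread within each group was small and the fall 1.81-fold (log2 fold change -0.85 ± 0.07, adjusted p = 8.4e-08). Ebf1 lies on chromosome 11 at 44617317 to 45008091 (mm10, forward strand). Nfix, a nuclear factor I gene, had 135, 164, 123 and 161 CPM in the PBS libraries and 77.5, 76.7, 97.2 and 77.4 CPM in the CGRP libraries. CGRP replicate 3 was the highest of its group and below every PBS library (log2 fold change -0.83 ± 0.11, adjusted p = 3.26e-05). Nfib of the same family (-0.54 ± 0.08) and Gli3, a factor of hedgehog signalling (-0.57 ± 0.11), fell. The bHLH factors fell in 12, 23.5%, and rose in 3 of 51, with Epas1, a hypoxia-inducible factor (-0.75 ± 0.18), among the falls and Hes1, a target of Notch (0.95 ± 0.23), among the rises. Their falls were 8 without CGRP replicate 2. Ldb2, a LIM domain-binding cofactor, stood at 68.5, 58.3, 52 and 55.3 CPM after PBS and at 23, 20.7, 27.5 and 19.8 CPM after CGRP. It fell 2.57-fold (log2 fold change -1.36 ± 0.14, adjusted p = 1.31e-06), and so did the corepressor Tle2 (-1.01 ± 0.20).

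The bZIP list had 6 rises and 1 fall among 45, 13.3% and 2.22%. Cebpz, which carries this family's name but acts in the nucleolus on the large ribosomal subunit, gave 28.9, 30.9, 28.3 and 27.8 CPM in PBS replicates 1 to 4 and 42.8, 44.6, 40.3 and 46.9 CPM in CGRP replicates 1 to 4. Mafk, a small Maf protein (0.42 ± 0.11), rose. The list of ETS, RUNX, GATA, STAT, IRF, NFAT and NF-kB factors had 8 rises and 5 falls among 48. The rises were 2 without CGRP replicate 4, 4 without PBS replicate 1 and 5 without PBS replicate 2, and the falls 2 without CGRP replicate 1, CGRP replicate 2 or PBS replicate 1 and 3 without PBS replicate 2. Ets2 rose (0.49 ± 0.11) and Etv1 fell (-0.76 ± 0.17). Klf3 rose (0.57 ± 0.11) and Klf12 fell (-1.10 ± 0.21). Of 332 genes with a Zfp symbol, the largest family tested, 8 rose and 12 fell, 2.41% and 3.61%, both under the background (4 rises without CGRP replicate 4 or PBS replicate 2, 5 to 7 falls without any single library other than CGRP replicate 3 or PBS replicate 4, and 13 rises and 8 falls with total counts). Zfp467 (-1.16 ± 0.23) and Zfp9 (-0.64 ± 0.12) were among the falls. The Zfp genes were low in abundance, with a median of 10.4 CPM in the higher group against 20.1 over all genes. Of all genes with a mean of 5 to 20 CPM 5.42% rose and 6.59% fell, and of those under 5 CPM 1.73% and 2.95%. Of 15 SOX and T-box factors 0 were called in either direction by edgeR, 3 had a negative fold change at an unadjusted p under 0.05 and 0 were called by DESeq2. Those with the highest mean CPM were Sox9 (0.05 ± 0.18, adjusted p = 0.901) and Tbx15 (-0.21 ± 0.12, adjusted p = 0.233). Enzymes that modify histones and DNA rose in 9 and fell in 3 of 94, and without CGRP replicate 4 in 6 and 0. The falls were also 0 without PBS replicate 1, and 1 without PBS replicate 4 and with total counts. Kat2a, a histone acetyltransferase, had 21.8, 15.1, 25.6 and 26.8 CPM in the PBS libraries and 38.7, 35.3, 45.4 and 48.5 CPM in the CGRP libraries. Hdac7, a histone deacetylase of class IIa, stood at 92.9, 88, 103 and 91.2 CPM after PBS and at 137, 135, 126 and 132 CPM after CGRP. Both rose (0.91 ± 0.15 and 0.50 ± 0.09), as did Prmt3, an arginine methyltransferase whose main substrate is a ribosomal protein (1.71 ± 0.30), and the demethylase Phf8 (0.68 ± 0.17). Of 70 chromatin remodelling factors and bromodomain readers 4 rose and 8 fell (3 to 5 falls without any single library other than CGRP replicate 3 or 4, and 7 rises and 5 falls with total counts), with Brd2 (0.42 ± 0.09) and Mbd3 (0.66 ± 0.14) up and the chromatin proteins Hmgn3 (-0.79 ± 0.12) and Cbx5 (-0.44 ± 0.08) down. Pprc1, a coactivator of the PGC-1 family, rose (0.70 ± 0.15). Of the chromatin remodelling list 5.71% rose and 11.4% fell, against 7.84% and 8.37% of all genes. The shares were 9.57% and 3.19% for the histone and DNA enzymes and 16.7% and 10.4% for the list with the ETS factors.

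Regulators of G proteins and small GTPases fell more often than they rose. In the list of RGS genes, receptor kinases, arrestins and G-protein subunits 12 of 46 fell, 26.1%, and 4 rose (6 falls without CGRP replicate 4, 7 without CGRP replicate 1). Gnb4, a beta subunit, gave 145, 144, 148 and 125 CPM in PBS replicates 1 to 4 and 56, 83.9, 92.2 and 79 CPM in CGRP replicates 1 to 4. Gng11, a gamma subunit, had 66.3, 73.1, 61.4 and 69.2 CPM in the PBS libraries and 37.3, 42.8, 50.9 and 37.8 CPM in the CGRP libraries. Both fell (-0.86 ± 0.11 and -0.68 ± 0.11), as did Rgs10, which speeds the shut-off of inhibitory subunits (-0.81 ± 0.16). Of 111 regulators of small GTPases 14 fell, 12.6%, and 3 rose (6 without PBS replicate 3 or 4 and with total counts). Arhgef25, an activator of RhoA, stood at 117, 144, 115 and 115 CPM after PBS and at 73.5, 87.1, 83.1 and 68.5 CPM after CGRP. It fell (log2 fold change -0.66 ± 0.10, adjusted p = 0.000139), as did Cdc42ep5, an effector of Cdc42 (-1.03 ± 0.17). Arhgap42, which shuts RhoA off, gave 20.7, 12.9, 31 and 33.1 CPM in PBS replicates 1 to 4 and 59.3, 40.4, 47 and 36.4 CPM in CGRP replicates 1 to 4. It rose (log2 fold change 0.91 ± 0.21, adjusted p = 0.00664), and the call was lost in a fit to the 8 libraries alone. Of the Sprouty genes, which restrain receptor tyrosine kinase signals, Spry4 (-0.94 ± 0.22) and Spry1 (-0.53 ± 0.13) fell. Phosphodiesterases and adenylyl cyclases rose in 5 (3 without CGRP replicate 4) and fell in 3 (5 without CGRP replicate 2 or PBS replicate 2) of 51. These were 9.8% and 5.88%, against 7.84% and 8.37% of all genes. Pde1a, which breaks down cyclic nucleotides when calcium is high, had 53.9, 55.4, 73.5 and 62.5 CPM in the PBS libraries and 113, 91.7, 131 and 132 CPM in the CGRP libraries. Arrdc3, an arrestin-like adaptor, stood at 31.3, 21.5, 20.4 and 20.4 CPM after PBS and at 49.2, 30.6, 51.5 and 49.1 CPM after CGRP. Pde1a rose without overlap (0.93 ± 0.13) and Arrdc3 rose with CGRP replicate 2 just under PBS replicate 1 (0.95 ± 0.20).

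Genes of tubulins, actins, tropomyosins and myosin light chains fell in 12 and rose in 3 of 51, 23.5% and 5.88%. The median was -0.158. Over all genes the shares were 8.37% and 7.84%. The list was abundant (median 78.2 CPM in the higher group). Falls were 20.5% of all genes with a mean over 100 CPM and 9.61% of those at 20 to 100 CPM. There were 8 falls without PBS replicate 2, 1 rise without CGRP replicate 4, and 8 falls without PBS replicate 4 and CGRP replicate 3. Myl9, a regulatory light chain of smooth muscle and non-muscle myosin, gave 43.3, 34.3, 48.4 and 55.8 CPM in PBS replicates 1 to 4 and 20.9, 20.7, 15 and 14.6 CPM in CGRP replicates 1 to 4. It fell 2.55-fold (log2 fold change -1.35 ± 0.18, adjusted p = 2.25e-05). Myl6 (-0.36 ± 0.07), Tpm1 (-0.43 ± 0.08) and Tmsb4x, which binds actin monomers (-0.39 ± 0.08), fell by less, and Tuba1c, an alpha tubulin with near-identical relatives, rose (1.66 ± 0.35). Mylk, the kinase of myosin light chains, had 12.3, 12.1, 12.7 and 14.3 CPM in the PBS libraries and 0.914, 6.29, 1.38 and 6.12 CPM in the CGRP libraries. It fell (log2 fold change -1.83 ± 0.41, adjusted p = 0.00549). The summed pericyte and smooth muscle markers were lower after CGRP in the same libraries, 91.4 to 110 against 135 to 184 CPM, and Myh11, their defining myosin, had means of 2.28 and 0.373 CPM. The part of these markers in the falls of contractile genes was not tested.

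Some of the largest changes belong to none of the lists. Thbd, thrombomodulin, a receptor that turns thrombin towards activating protein C, was chosen after its values were seen. It stood at 244, 232, 308 and 219 CPM after PBS and at 1042, 1038, 1014 and 1264 CPM after CGRP. The rise was 4.34-fold (log2 fold change 2.12 ± 0.10, adjusted p = 1.66e-12), with every CGRP library more than 3 times as high as any PBS library. It lies on chromosome 2 at 148404466 to 148408188 (mm10, reverse strand). Alpl, alkaline phosphatase, gave 72.2, 94.6, 122 and 66.1 CPM in PBS replicates 1 to 4 and 351, 365, 346 and 481 CPM in CGRP replicates 1 to 4. Alpl (2.12 ± 0.16), Fgl2, a fibrinogen-like protein (2.07 ± 0.24), Acsl4, which activates arachidonic acid (1.95 ± 0.24), Prg4, lubricin (1.67 ± 0.28), and Xdh, xanthine dehydrogenase (1.34 ± 0.12), all chosen after their values were seen, rose. On the other side Sept6, a septin, had 62.3, 51.6, 37.8 and 54.6 CPM in the PBS libraries and 9.04, 15.1, 19.3 and 17.2 CPM in the CGRP libraries. It fell 3.42-fold (log2 fold change -1.77 ± 0.19, adjusted p = 3.44e-06). Plvap, a protein of endothelial diaphragms, fell (-1.61 ± 0.27), while the summed endothelial markers were 113 ± 25.3 CPM after PBS and 108 ± 9.77 after CGRP (mean ± SD, n = 4, exact two-sided permutation p = 0.8). Col8a2, a short-chain collagen, fell too (-1.62 ± 0.34). Of all 2262 called genes 872 were in at least 1 list and 1390 in none, and 2169 were protein-coding.

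At 8 h, in the other 8 libraries, 1210 genes or 8.67% were called. Of the 1094 genes that rose at 4 h 324 also rose at 8 h, and of the 1168 that fell 233 also fell. These 557 genes were 24.6% of the calls at 4 h and 46% of those at 8 h. The change between the times was itself called for 156 of all genes, 1.12%, and for 49 of the rises and 77 of the falls of 4 h. The test of this change reuses the 4 h values, so picking genes by their call at 4 h favours a smaller effect at 8 h. Ribosome biogenesis factors rose at 8 h in 47 of 153, 30.7%, with a median of 0.40. Of the synthetases 10 of 23 rose at 8 h, 43.5%. The 8.67% of all genes called at 8 h counts both directions, so the share of rises alone was at most that. The synthetase gene with a called difference was Eprs, at 0.08 ± 0.10 at 8 h against 1.5 ± 0.10 at 4 h (adjusted p of the difference = 5.49e-06). Ackr4 and Ackr1 stood at 0.09 ± 0.25 and -0.11 ± 0.15 at 8 h, and Ebf1 at -0.08 ± 0.07. Abca8b (-0.84 ± 0.09), Lifr (-0.93 ± 0.11) and Myl9 (-1.24 ± 0.17) were still lower and Alpl (2.49 ± 0.16) still higher at 8 h, each with an adjusted p under 0.05.

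**Figure D5:**
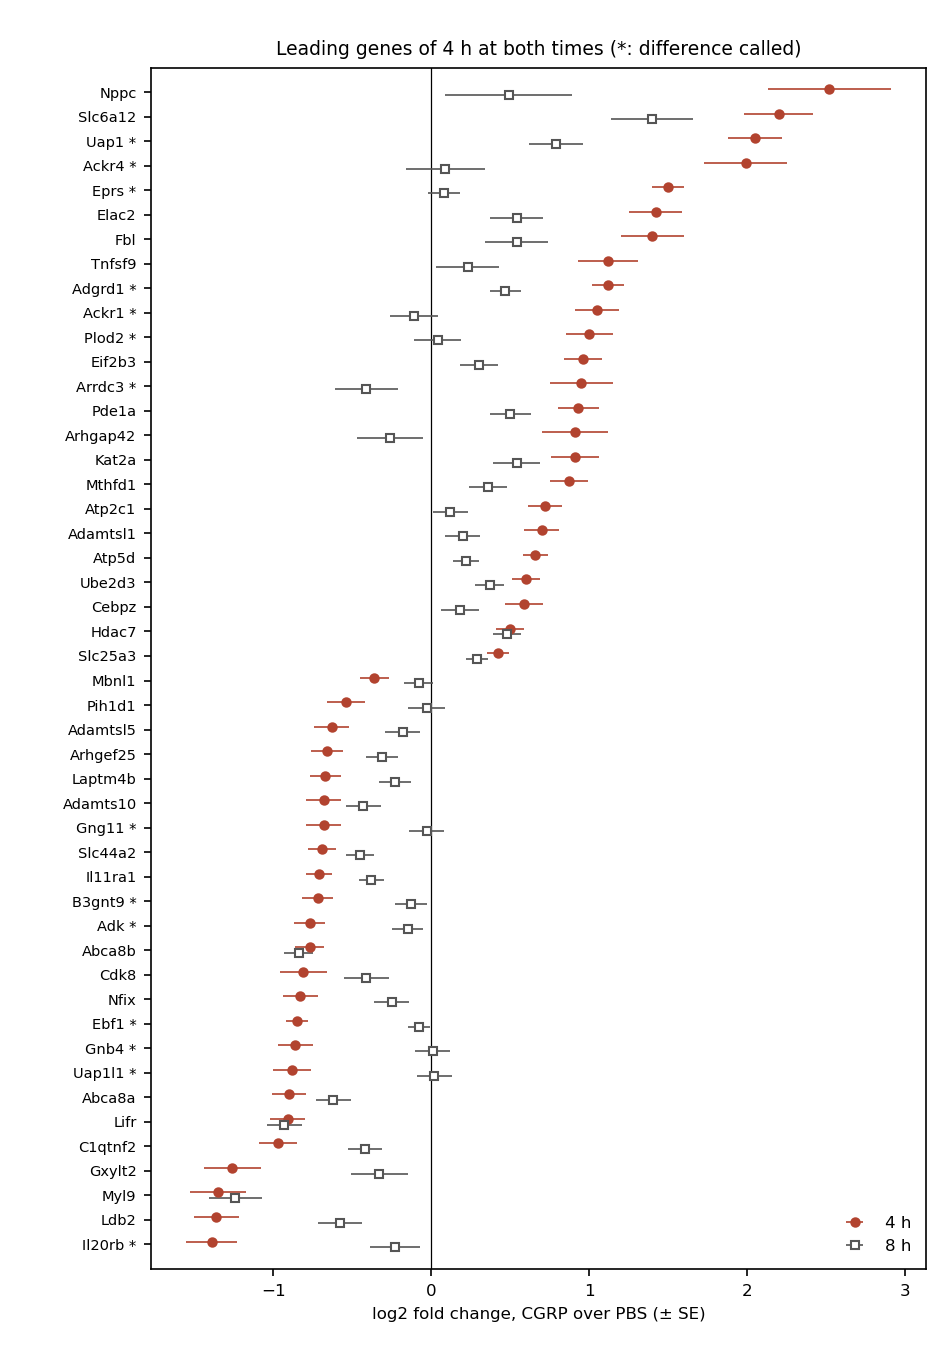
Log2 fold change of CGRP over PBS ± SE (horizontal axis) at 4 h (red circles) and 8 h (open squares) for the 48 leading genes of 4 h (vertical axis, ordered by the 4 h value); an asterisk marks a called difference between the times. Of the 48 genes 14 carry an asterisk, among them Eprs, Ackr4, Ebf1 and Gnb4, whose squares lie near 0. The genes were picked by their p at 4 h, which favours a smaller value at 8 h.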

How the data were processed

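The authors deposited raw gene counts for all 16 libraries, 1 table of 52997 genes. The submitters' processing notes name STAR 2.5.4, featureCounts and the build mm10. Gene models, strandedness of the counting and handling of multiply mapped reads were not given in the sources used here. Per the labels' protocols the libraries were made with Nextera XT, which does not mark strand, so reads of overlapping or antisense genes cannot be told apart. PCR copies were counted without molecular identifiers.

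The counts were fitted with edgeR 4.0.16 in R 4.3.3 (TMM scaling, filterByExpr, robust quasi-likelihood) over 4 groups of 4 libraries, with 12 residual degrees of freedom. The common biological coefficient of variation was 17.4%. Pairs of replicates differed beyond sampling noise, with a chi-square per degree of freedom of 8.63 to 22.7, so none was counted as a repeat of another. On simulated counts 13692 genes were fitted, of which 67 changed 1.5-fold, 66 changed 2-fold and 64 changed 4-fold. Of these changes 35.8%, 65.2% and 87.5% were recovered, and 3.15% of 127 calls were false. Far fewer genes were called there than the 2262 of the data, so the adjustment was stricter. The recovered shares therefore do not give the power of the comparison itself. Alternatives included DESeq2 1.42.0. Promoter windows came from RefSeq on GRCm38.p6 and positions from GENCODE M21, which matched 13682 of the 13949 tested genes.

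The comparison, the lists and the tests were chosen with earlier results of these data known. From each list up to 4 called genes in each direction were eligible for naming, those with the smallest p and at least 5 CPM in the higher group, or, with none called, the 2 most abundant. Values in every library are given for the 3 with the smallest p in each direction in each category. The 15 largest changes in each direction were eligible too. Not every eligible gene is named, and unnamed gene models and pseudogenes were left out. The cell type markers given with values and the genes Mylk, Trmt61a and Prmt3 stand outside the rule and, like those marked so in the text, were chosen after their values were seen. Some eligible genes are not reported here.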

Additional observations from a re-analysis of the deposited data

Results flagged for a closer look

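In 29 of 444 groups of 4 libraries, 2 for each gene named, 1 library lay further from the other 3 than Dixon's limit for 4 values, 6.53% against the 5% that chance gives. CGRP replicate 1 was high for Il6ra at 94.9 CPM against 60.9 to 65.4. CGRP replicate 1 was low for Cspg4 at 22.3 CPM against 38.2 to 40.2, Oaz2 at 74.7 CPM against 87.1 to 87.9 and Etv1 at 9.34 CPM against 11.6 to 11.9. CGRP replicate 2 was high for Phgdh at 42.7 CPM against 33.2 to 34.8. CGRP replicate 2 was low for Arrdc3 at 30.6 CPM against 49.1 to 51.5. CGRP replicate 3 was high for Nfix at 97.2 CPM against 76.7 to 77.5. CGRP replicate 3 was low for Slc6a12 at 20.5 CPM against 26.7 to 27.7. CGRP replicate 4 was high for Nop16 at 108 CPM against 72.1 to 77.3, Dio2 at 94 CPM against 67.7 to 71.6, Nsun2 at 167 CPM against 98.9 to 109, Exosc1 at 70.8 CPM against 43.5 to 47.5, Eif2b3 at 67 CPM against 49 to 51.8, Srm at 192 CPM against 124 to 128, Timm10 at 60.2 CPM against 35.5 to 39.5, Thbd at 1264 CPM against 1014 to 1042 and Alpl at 481 CPM against 346 to 365. CGRP replicate 4 was low for Mxd4 at 74.9 CPM against 93.6 to 96.6. PBS replicate 1 was high for Cdk8 at 27.8 CPM against 20.6 to 21.2 and Arrdc3 at 31.3 CPM against 20.4 to 21.5. PBS replicate 1 was low for Rpl18 at 138 CPM against 154 to 157. PBS replicate 2 was high for Angptl1 at 449 CPM against 371 to 383 and Arhgef25 at 144 CPM against 115 to 117. PBS replicate 3 was high for Polr1a at 30.3 CPM against 23.8 to 24.4 and Gja1 at 492 CPM against 386 to 399. PBS replicate 3 was low for Pih1d1 at 25.4 CPM against 31 to 32.1 and Mrpl15 at 36.9 CPM against 42.4 to 43.2. PBS replicate 4 was high for Tnfsf9 at 22.3 CPM against 17.4 to 17.8. PBS replicate 4 was low for Slc44a1 at 63.4 CPM against 76.6 to 76.9. CGRP replicate 4 held more of these values than any other library.

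For 28 of the genes named the effect of CGRP at 8 h differed from that at 4 h, by edgeR's quasi-likelihood test of the difference over all 13949 genes. The values are the log2 fold change at 8 h minus that at 4 h. Most of the genes were named for a small p or a large change at 4 h, and this test reuses the 4 h values. That choice favours a smaller effect at 8 h. The rise at 4 h was smaller or gone at 8 h for Dio2 (-1.34, adjusted p = 0.00322), Eprs (-1.42, adjusted p = 5.49e-06), Plod2 (-0.96, adjusted p = 0.028), Uap1 (-1.26, adjusted p = 0.0157) and Arrdc3 (-1.36, adjusted p = 0.0197). The same held for Adgrd1 (-0.66, adjusted p = 0.0231), Ackr4 (-1.90, adjusted p = 0.00925), Ackr1 (-1.16, adjusted p = 0.00527), Il6ra (-1.06, adjusted p = 0.0251) and Vegfd (-1.22, adjusted p = 0.0498). A smaller value at 8 h was also found for Klf3 (-0.71, adjusted p = 0.0315), Phf8 (-1.10, adjusted p = 0.0263), Thbd (-1.12, adjusted p = 0.000177), Acsl4 (-1.60, adjusted p = 0.022) and Xdh (-1.12, adjusted p = 0.00155). Among genes that fell at 4 h, the value at 8 h was higher for B3gnt9 (0.60, adjusted p = 0.0398), Uap1l1 (0.90, adjusted p = 0.00564), Adk (0.62, adjusted p = 0.0329), Phgdh (0.68, adjusted p = 0.0285) and Adgre5 (1.03, adjusted p = 0.0152). To these belonged Il20rb (1.16, adjusted p = 0.00928), Acvrl1 (0.67, adjusted p = 0.0315), Angptl1 (0.73, adjusted p = 0.00527), Ebf1 (0.78, adjusted p = 0.000208) and Gnb4 (0.86, adjusted p = 0.00577). The last of them were Gng11 (0.65, adjusted p = 0.0329), Cdc42ep5 (1.06, adjusted p = 0.0263) and Plvap (2.36, adjusted p = 0.00155). The log2 fold change of Plvap was -1.61 at 4 h and 0.75 at 8 h. No library is shared between the times, so the time and the set of libraries cannot be told apart.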

How the results depend on the processing

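Of the 217 called genes named, 0 changed direction in any refit, and 215 kept the call whichever single library was left out. S100b and Ly6a did not. Without 1 library at a time 1481 to 2226 genes were called (696 to 1146 higher, 785 to 1080 lower), and 61 to 103 ribosome biogenesis factors rose. The lowest values, 1481, 696, 785 and 61, all came without CGRP replicate 4. Of 169 counts of rises or falls over lists and categories, 95 moved past 1.5 times in at least 1 of these fits, 61 of them without CGRP replicate 4.

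A test against a fold of 1.5 left 110 genes, 65 higher and 45 lower, 4 ribosome biogenesis factors among them, and 180 of the named genes lost the call. DESeq2 called 2609 genes (1304 and 1305). A fit to the 8 libraries alone called 1882 (898 and 984) and lost 2 named genes, S100b and Arhgap42. Upper-quartile scaling gave 2294 (913 and 1381), total counts 2326 (1401 and 925) and RLE scaling 2247 (1119 and 1128). Without a filter on low counts 2206 genes were called (1112 and 1094), and with a stricter one 2270 (1088 and 1182). Without PBS replicate 4 and CGRP replicate 3, 2053 were called (1093 and 960).

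With the replicate number as a block 2167 genes were called (1034 and 1133), 94 ribosome biogenesis factors among the rises. Over all tested genes, deviations of same-numbered libraries were not correlated (r = -0.00592, 0.0344, -0.0249 and -0.0111 for numbers 1 to 4). No pairing by number was thus seen over the whole, but this measure could miss one limited to some of the genes.

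The summed markers, the values at 8 h and the shares of promoters were not recomputed under these settings. In the simulation, where far fewer genes were changed than were called in the data, 35.8% of 1.5-fold changes were recovered.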
